A study of Mus musculus with 6 samples.

Results

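AP-1 is a family of transcription factors that bind DNA as pairs of bZIP proteins, built from a Jun protein alone or a Jun with a Fos or an ATF protein. Many of its genes are immediate early genes: they are switched on within minutes of a growth factor or stress signal, without new protein synthesis, by kinases of the MAPK pathways acting on factors such as SRF, the ELK proteins and CREB. In mammary tumor cells these genes respond to receptor and Src-type signalling, and the same genes also rise when a tissue is dissociated. The 10 genes described here were chosen by symbol: Fos, Fosb, Fosl1 and Fosl2 (the Fos family), Jun, Junb and Jund (the Jun family), and the stress and growth factor response genes Atf3, Egr1 and Ier3. A row of their own was found for 9 of the 10, out of 24308 rows in the deposited table.

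The series was made from mammary tumors of 7-week-old FVBN female mice, as 3 PyMT control samples and 3 PyMT Elp3 cKO samples. All mice carried PyMT, the polyoma middle T oncogene, and in the cKO mice MMTV-Cre was used to delete Elp3. The Elp3 protein is the enzyme within the Elongator complex, which modifies the wobble uridine of certain tRNAs. The MMTV promoter drives Cre mainly in mammary epithelium, and which other cells in a tumor keep the gene is not known here. Each sample came from a different mouse, tumors were matched for size, and epithelial cells were selected from a trypsin- and dispase-treated cell suspension before polyA RNA was sequenced.

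The table does not separate the genotypes. Each Elp3 cKO column was equal to the control column of the same number, with 0 of 24308 rows differing for each of the 3 numbers. What remains is 3 distinct sets of values under 6 labels, called profiles 1, 2 and 3. Their genotype is unknown, no effect of Elp3 loss was computed, and Elp3 itself stood at 15.6, 17.9 and 19.0 FPKM in profiles 1, 2 and 3. FPKM counts fragments relative to transcript length and library size, so levels of different genes can be set side by side. Values are given per profile without averages, since it is not known which profiles belong to the same group, and no test was made between single profiles.

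The profiles were alike in breadth, with summed FPKM between 621793 and 636842 and with 11380 to 11569 rows at 1 FPKM or more. The epithelial label was borne out by its markers: all 5 luminal genes had a mean above 1 FPKM, with Cdh1, the E-cadherin gene and lowest of them, between 321 and 336 and Epcam at 867, 763 and 800 FPKM. Of 6 leukocyte markers, Cd68 stood in a row shared with another gene and was left out. The other 5 were low, with 1 reaching a mean of 1 FPKM and Ptprc, the pan-leukocyte CD45, between 0.0677 and 0.0969 FPKM. Profile 3 stood apart in salivary genes, whose summed level over 4 genes was 1.01, 0.682 and 849 FPKM in profiles 1, 2 and 3. The summed level of 5 fibroblast genes was 55.8, 128 and 185 FPKM, and that of 4 endothelial genes was 25.0, 26.3 and 11.4 FPKM.

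The DNA just before the start of these genes was searched for letters that regulators of immediate early genes are known to bind. RefSeq windows of the GRCm38.p6 build were matched for 8 of the 10 genes (not Egr1 and Fosl1). Shown are the 140 bases before the start of the Fos, Fosb, Junb, Atf3 and Jun genes, picked because each holds TGACG or TGACATCA, relatives of the element bound by CREB, ATF and Jun proteins, and of Ier3, the most abundant member, picked because it holds an NF-kB match. Capitals mark TGACG, TGACATCA, the TATA element TATAAA and, for Ier3, the NF-kB match; the matches of Atf3 and Ier3 lie on the opposite strand. The stretches lie at chr12:85473750-85473889 on the plus strand for Fos, chr7:19310046-19310185 on the minus strand for Fosb, chr8:84978749-84978888 on the minus strand for Junb, chr1:191183334-191183473 on the minus strand for Atf3, chr4:95052223-95052362 on the minus strand for Jun, and chr17:35821573-35821712 on the plus strand for Ier3.
Fos: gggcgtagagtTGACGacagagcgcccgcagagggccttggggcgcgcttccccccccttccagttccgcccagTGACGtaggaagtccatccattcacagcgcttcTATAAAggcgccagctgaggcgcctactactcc
Fosb: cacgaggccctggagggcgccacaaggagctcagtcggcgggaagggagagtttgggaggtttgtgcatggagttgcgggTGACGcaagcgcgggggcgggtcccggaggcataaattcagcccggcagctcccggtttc
Junb: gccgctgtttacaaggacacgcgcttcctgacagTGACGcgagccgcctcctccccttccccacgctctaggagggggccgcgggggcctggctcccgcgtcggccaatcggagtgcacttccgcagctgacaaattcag
Atf3: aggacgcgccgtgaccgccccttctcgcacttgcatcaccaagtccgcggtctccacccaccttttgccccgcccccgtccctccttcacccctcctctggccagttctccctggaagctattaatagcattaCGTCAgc
Jun: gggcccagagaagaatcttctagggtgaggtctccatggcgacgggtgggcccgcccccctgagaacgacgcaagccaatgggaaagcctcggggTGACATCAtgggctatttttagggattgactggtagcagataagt
Ier3: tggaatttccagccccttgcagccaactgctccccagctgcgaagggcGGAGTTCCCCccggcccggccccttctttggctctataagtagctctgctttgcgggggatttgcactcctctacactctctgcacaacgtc

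Within the 250 bases before the start, read on both strands, TGACG stood in 4 of the 8 windows (Fos, Fosb, Junb and, 7 bases before its start, Atf3), against 17.8% of all 32851 windows. Fos held it at 2 places, starting 129 and 66 bases before the start, and was the only member window with TATAAA, which 12.4% of all windows hold. Jun held TGACATCA, starting 45 bases before its start and present in 2.93% of all windows. TGANTCA, a looser form of the classical AP-1 element with any base at N, was in 0 of 8 windows and in 6.75% of all. The full CRE TGACGTCA was in 0 of 8 and 1.55%. The CArG box, the element bound by SRF, was in 0 of 8 and 1.47% of all windows, the NF-kB match in 4 of 8 (Fos, Fosb, Fosl2 and Ier3) and 7.25%, the GC box GGGCGG in 6 of 8 and 32.7%, and CCAAT in 3 of 8 and 33.8%. In Ier3 the NF-kB match overlaps a GGGCGG match. TGACG is also part of TGACGTCA. A match is a description of letters and does not show that a factor binds there, and a missing match speaks only of this window.

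The genes were strongly expressed in all 3 profiles. Each of the 9 stood above 30 FPKM in every profile, where the median row with a symbol and a mean of 1 FPKM or more stood at 12.5, 12.7 and 13.0 FPKM in profiles 1, 2 and 3. By median level the order was Ier3, Junb, Fos, Jun, Jund, Fosl2, Atf3, Egr1 and Fosb. Ier3 was separated from Junb, Jund from Fosl2, and Egr1 from Fosb, in that their ranges over the profiles did not overlap. The other neighbours in the order had overlapping ranges and were not separated, and Fos and Jun changed places under median-ratio scaling.

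**Figure D1:**
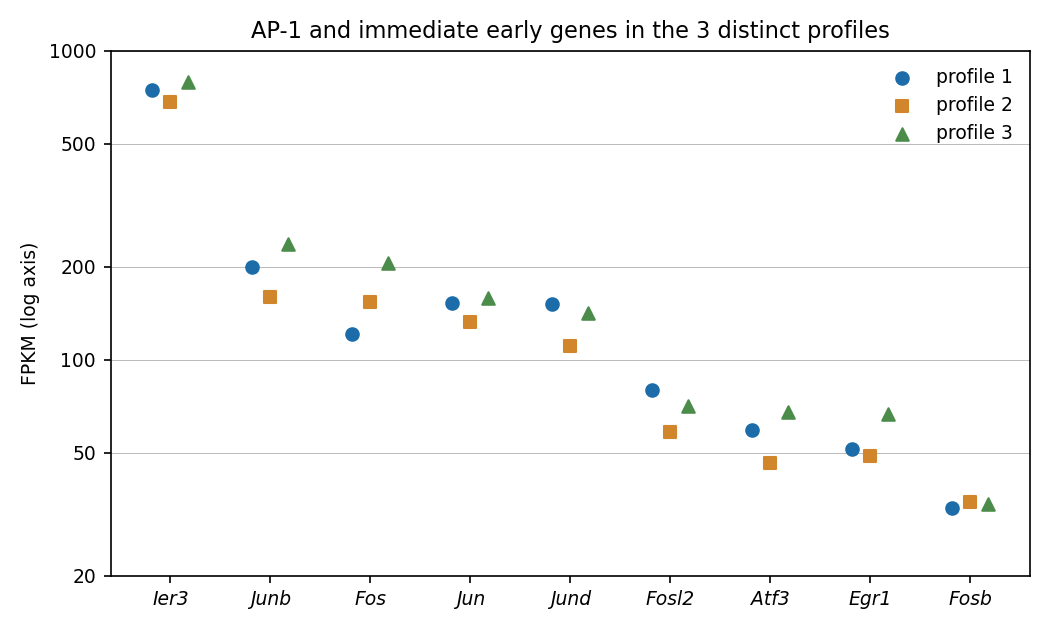
FPKM (log axis) of the 9 genes with a row of their own, ordered by median, with 1 point for each of the 3 distinct profiles. Ier3 lies alone between 681 and 792 FPKM, a middle tier of Junb, Fos, Jun and Jund lies between 111 and 236, and Fosb lies lowest with its 3 points between 33.1 and 34.6.

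The Jun family was carried by all of its 3 genes. Junb, which encodes a Jun protein that often restrains proliferation, stood at 199, 159 and 236 FPKM in profiles 1, 2 and 3 (deposited locus: chromosome 8, 84976696 to 85003364, mm10). It was lowest in profile 2 and highest in profile 3, a 1.48-fold distance. That locus is wider than the gene: Hook2 carries the same coordinates, and the stretch shown before the Junb start lies inside it. The locus holds 3 other rows, among them Hook2 at 28.5, 37.6 and 34.5 FPKM. How fragments were divided between them is not known.

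Jun, the founding member of the family, stood at 152, 133 and 158 FPKM (chromosome 4, 95049036 to 95052222). Profiles 1 and 3 were close and profile 2 was the low one, 1.19-fold under the highest. Jund, the family member known for steady expression in resting cells, stood at 151, 111 and 141 FPKM (chromosome 8, 70697739 to 70700616). It too was lowest in profile 2, but profile 1 was its highest.

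Together the Jun genes summed to 503, 403 and 535 FPKM. Junb made up 39.6%, 39.5% and 44.1% of that sum, so its share was the largest of the 3 genes in every profile. Jun held 30.3%, 32.9% and 29.5%, and Jund 30.1%, 27.6% and 26.4%.

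Within the Fos family, Fos was the most abundant in every profile. Fos, whose transcript and protein are both short-lived, stood at 121, 154 and 205 FPKM (chromosome 12, 85473901 to 85477363). It was the widest-ranging member, with profile 3 above profile 1 by 1.70-fold, a difference of 0.76 on the log2(FPKM + 1) scale, and profile 2 between them. With single profiles on each side there is no replicate check of this difference.

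Fosl2, which encodes FRA2, a slower and more lasting Fos protein, stood at 79.8, 58.3 and 70.6 FPKM (chromosome 5, 32136472 to 32157839). It ran differently from Fos: profile 1 was its highest and profile 2 its lowest, 1.37-fold apart. Fosb, which encodes a Fos relative that also exists in a truncated form, stood at 33.1, 34.6 and 34.1 FPKM (chromosome 7, 19302545 to 19310045). Its 3 values lay within 1.04-fold, the narrowest range of the 9 genes, and only 4.18% of rows had a narrower one.

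The sum of Fos, Fosb and Fosl2 was 234, 247 and 310 FPKM. Fos supplied 51.7%, 62.4% and 66.2% of it, while Fosl2 supplied 34.1%, 23.6% and 22.8%. The Jun genes thus exceeded these Fos genes in every profile, by 2.15, 1.63 and 1.73 times in profiles 1, 2 and 3. Fosl1, which encodes FRA1, is left out of these sums because it has no row of its own: the row that names it together with AI837181 stood at 69.4, 54.2 and 62.1 FPKM and cannot be divided between the genes. Another row at that locus, Ccdc85b, stood at 34.9, 30.7 and 29.9 FPKM. These are transcript levels, and protein was not measured here.

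The remaining members are stress and growth factor response genes. Ier3, which encodes a small protein that acts on survival and ERK signalling, stood at 749, 681 and 792 FPKM (deposited locus: chromosome 17, 35813602 to 35822924). It was 3.76 times the median of Junb and ranked 129 among the 11256 rows with a symbol and a mean of 1 FPKM or more. Its profiles were close, within 1.16-fold. Its deposited locus is wider than the gene, as the stretch shown before the Ier3 start lies inside it. The locus holds 2 other rows, both without a symbol, and how fragments were shared among them is not known.

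Atf3, a stress-induced bZIP factor that pairs with Jun proteins and often represses, stood at 59.2, 46.1 and 67.5 FPKM (chromosome 1, 191170297 to 191183333). Profile 2 was low and profile 3 high, 1.46-fold apart. Egr1, a zinc finger factor that is switched on through SRF and ELK proteins, stood at 51.5, 48.6 and 66.5 FPKM (chromosome 18, 34861207 to 34864956). Profiles 1 and 2 were close, and profile 3 was 1.37-fold above profile 2.

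Most members had their low point in the same profile. Profile 2 was the lowest for 7 of the 9 genes, all but Fos and Fosb, where 28.0% of the 11256 rows were lowest in profile 2. Of the 9, 6 were highest in profile 3, against 36.2% of rows, 1 (Fosb) was highest in profile 2, against 29.3%, and 5 (Ier3, Junb, Jun, Atf3 and Egr1) stood in the order profile 3, profile 1, profile 2, against 12.5%. None was lowest in profile 3, against 31.8%. The count lowest in profile 2 was 7 after median-ratio scaling and after quantile normalization, against 31.5% and 28.9% of rows. The count in the order 3, 1, 2 was 5 and 4, against 13.6% and 12.1% of rows. Ier3 left that order under quantile normalization. Leaving out profile 3, the profile with the salivary genes, cannot change the first count: the same 7 of 9 are then lower in profile 2 than in profile 1, where 47.0% of rows are. The 4 basal epithelial genes were all highest in profile 2, with a summed level of 498, 622 and 497 FPKM in profiles 1, 2 and 3, and their part in the members' low values there was not tested.

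**Figure D2:**
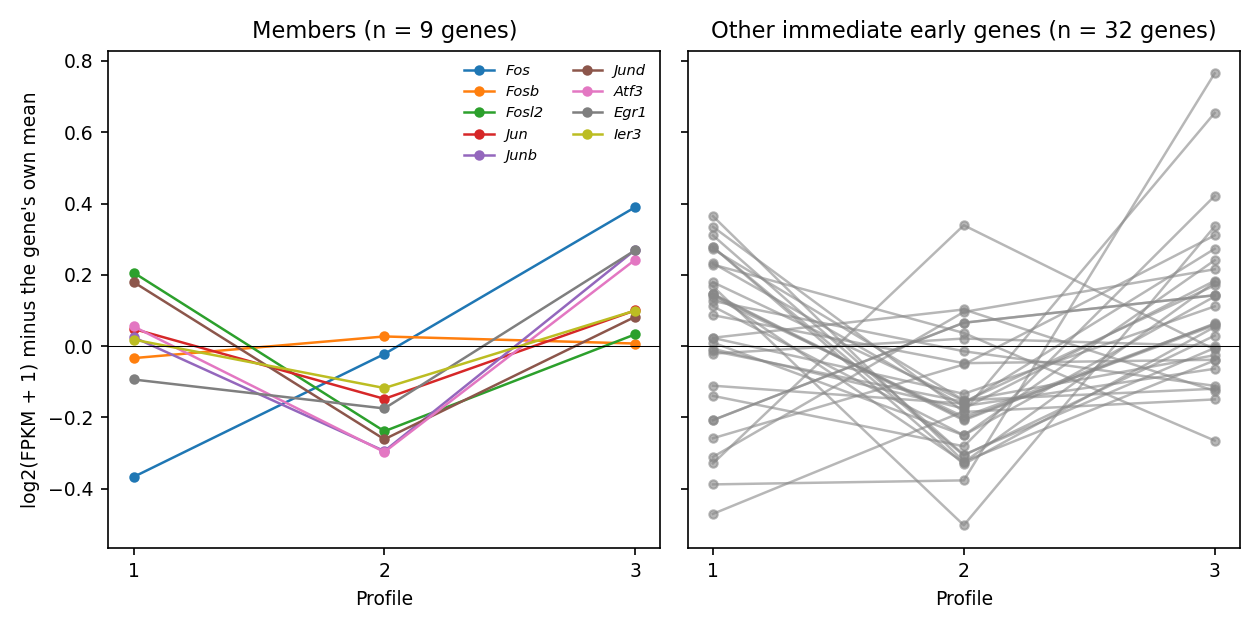
log2(FPKM + 1) of each gene minus its own mean over the profiles, for the 9 members (left) and for the 32 other immediate early genes averaging 1 FPKM or more (right). Lines join the values of a gene and imply no order of the profiles. Of the members, 7 have their lowest point in profile 2, Fos is 0.76 higher in profile 3 than in profile 1, and the points of Fosb lie within 0.061.

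Differences were small in size. A single member, Fos, passed a 1.5-fold difference between any pair of profiles, in profile 3 over profile 1, where 6.73% of rows did the same. In the other directions 0 of 9 members passed, where 3.78% of rows did for profile 2 over 1, 3.43% for 3 over 2, 2.33% for 2 over 3, 2.27% for 1 over 3 and 1.39% for 1 over 2. The span between the highest and lowest profile had a median of 0.44 over the members on the log2(FPKM + 1) scale, against 0.27 over all 11256 rows. The members' median span was 0.34, 0.17 and 0.32 without profile 1, 2 and 3. Dropping a profile can only narrow a span or leave it as it was. The same values were not computed for all rows, so nothing is read from the fall. All rows moved by at most 0.017 (median log2 difference) between profiles, while the median member stood 0.34 higher in profile 3 than in profile 2. The salivary genes of profile 3 and the higher fibroblast sum there accompany the members' high values in profile 3, and their part was not tested. Since the RNA comes from many cells, fewer cells with a transcript and less of it per cell cannot be told apart.

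Other immediate early genes were also mostly lowest in profile 2. Of 35 listed, all had a row and 32 had a mean of 1 FPKM or more. Of these 32, 21 (65.6%) were lowest in profile 2 and 9 (28.1%) stood in the order 3, 1, 2. Their highest value was less uniform: 15 were highest in profile 3, 14 in profile 1 and 3 in profile 2. Cyr61, a matrix-bound YAP and SRF target and the most abundant of them, stood at 896, 865 and 1169 FPKM. Ctgf, its relative, stood at 276, 173 and 310 FPKM. Both were lowest in profile 2 and highest in profile 3, as were Ier2 at 73.6, 52.7 and 75.3 FPKM and the orphan nuclear receptor Nr4a1 at 27.0, 24.4 and 40.3 FPKM.

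Other genes of that list differed from this pattern. Klf6 at 231, 161 and 164 FPKM, Rhob at 218, 142 and 175 and Myc at 130, 97.0 and 99.2 were lowest in profile 2 but highest in profile 1. Errfi1, a feedback inhibitor of EGF receptors, was highest in profile 2, at 478, 505 and 431 FPKM, and Plk2 stood within 249 to 257 FPKM. Arc, whose protein works at synapses, was like Fos lowest in profile 1 and highest in profile 3, at 2.52, 3.30 and 6.69 FPKM, and Tiparp, an aryl hydrocarbon receptor target, stood at 27.6, 27.9 and 62.7 FPKM. The paralogs of Egr1 were far below it: Egr2 stood between 1.30 and 2.66 FPKM, Egr3 between 1.40 and 2.46, and Egr4 between 0.0256 and 0.239. Npas4, best known from neurons, was above 0 only in profile 3, at 0.0317 FPKM, and listed at 0 in the others.

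Genes listed for MAPK feedback and for turnover of AP-1 proteins were mostly lowest in profile 2 as well. Of 15 with a mean of 1 FPKM or more, 12 (80.0%) were lowest in profile 2 and none in profile 3. Dusp1, a phosphatase of p38 and JNK that is itself an immediate early gene, stood at 105, 74.5 and 113 FPKM. Dusp5, a nuclear ERK phosphatase, stood at 125, 96.6 and 101 FPKM, and Spry2, a feedback inhibitor of receptor signalling, at 58.1, 46.2 and 59.5 FPKM. Dusp2, mostly a gene of blood cells, stood between 0.205 and 0.399 FPKM.

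The kinases and factors upstream differed little between profiles. The 20 measured had a median span of 0.20, and 7 (35.0%) were lowest in profile 2. Mapk3, which encodes the kinase ERK1, stood at 87.3, 96.7 and 101 FPKM. Map2k1, which encodes the ERK kinase MEK1, stood at 81.3, 83.4 and 86.0 FPKM. Rps6ka5, a histone and CREB kinase, was the lowest of them at 2.45, 2.30 and 2.82 FPKM.

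Among other bZIP genes, 17 of 21 measured had a mean of 1 FPKM or more, and 10 of the 17 (58.8%) were lowest in profile 2. Cebpb, a factor of epithelial growth and inflammation, stood at 200, 136 and 184 FPKM, and Atf5 at 185, 141 and 135 FPKM. Maff, a small Maf protein, stood at 78.6, 76.4 and 91.2 FPKM. The photoreceptor factor Nrl was above 0 only in profile 2, at 0.0328 FPKM, and listed at 0 in the others.

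Genes known as AP-1 targets were, like rows at large, most often lowest in profile 1. Of 21 with a mean of 1 FPKM or more, 11 (52.4%) were lowest in profile 1, against 40.2% of rows, and 6 (28.6%) in profile 2, close to the share of all rows. Hmox1, heme oxygenase, stood at 867, 1626 and 1513 FPKM, with profile 1 low. Spp1, osteopontin, stood at 193, 167 and 606 FPKM, and Vegfa, the angiogenic growth factor, at 201, 254 and 240 FPKM. Mmp1a, a collagenase gene, was listed at 0 in all profiles, unlike the other metalloproteinase genes of the list. Mmp3 stood at 74.6, 488 and 114 FPKM, Mmp10 at 2.40, 16.6 and 6.50, and Mmp13 at 3.52, 15.6 and 6.30, each highest in profile 2. Mmp9 was highest in profile 3, at 1.14, 1.95 and 2.64 FPKM. The 21 genes had a median span of 0.77, against 0.27 over all rows. All 5 fibroblast genes were lowest in profile 1, with the summed levels given above. Their part in the count of target genes lowest in profile 1 was not tested.

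Heat shock genes were most often highest in profile 2. The list includes constitutive genes such as Hspa8, and a part of cell handling in their levels was not tested. Of 13 listed, 11 had a row of their own and 2 stood in rows shared with other genes. Of the 11, 1 (9.09%) was lowest in profile 2, 6 in profile 1 and 4 in profile 3. Highest in profile 2 were 7 of 11, where 29.3% of all rows were, and 3 were highest in profile 3. Hspa8, the constitutive HSP70, stood at 2283, 3015 and 2872 FPKM, and Hsp90ab1 at 1498, 2183 and 2016 FPKM. Hspb1, a small heat shock protein, stood at 2467, 2751 and 2220 FPKM. The lists share no measured gene with the 9 members, yet their genes come from the same 3 profiles, so the counts describe these profiles and are not independent of each other.

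**Figure D3:**
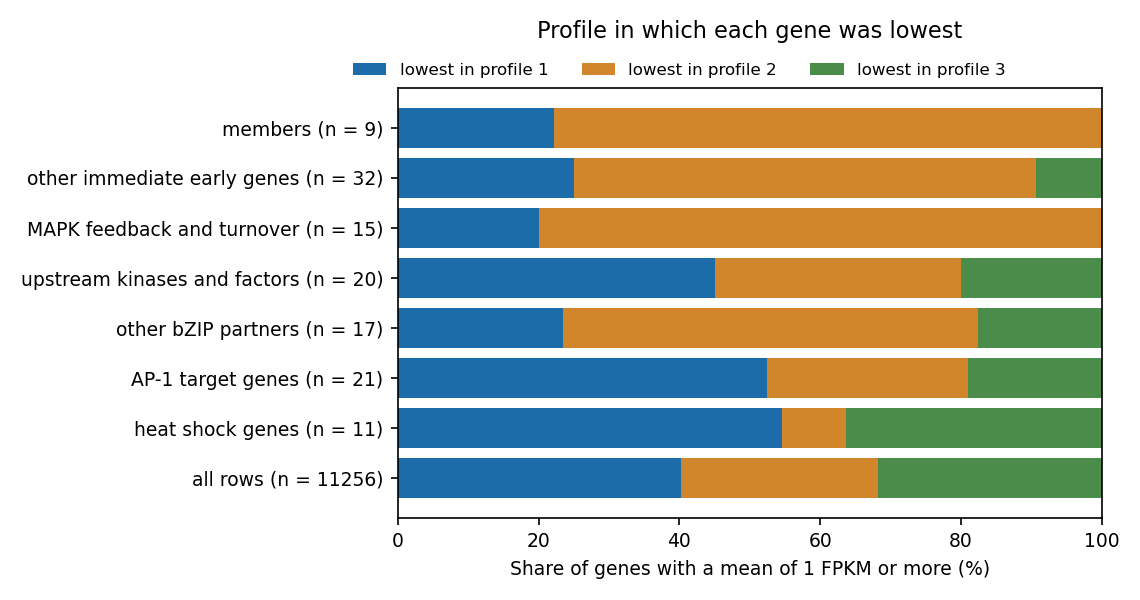
Share of the genes of each list, among those averaging 1 FPKM or more, that were lowest in profile 1, 2 or 3, beside the share over all 11256 rows. Profile 2 takes 77.8% of the members, 65.6% of other immediate early genes and 80.0% of the MAPK feedback and turnover genes, against 28.0% of all rows and 9.09% of heat shock genes.

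The mean pattern of the members over the 3 profiles was 0.0041, -0.17 and 0.17 around each gene's own mean on the log2 scale. It is an average: 5 of the 9 members stood in its order of profile 3, profile 1, profile 2. The members' own distances from it were not computed. Of 7622 other genes averaging 5 FPKM or more, 290 (3.80%) lay within a Euclidean distance of 0.1 of it. The nearest were Agpat2 at 25.0, 22.1 and 28.1 FPKM, Cmtm3 at 22.8, 20.1 and 25.8 FPKM, and Arhgef10l at 15.0, 13.4 and 16.9 FPKM, with distances of 0.0038, 0.0057 and 0.016. With 3 points, likeness of this kind says nothing beyond the values themselves.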

How the data were processed

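RNA was sequenced from 6 samples, 3 per labelled genotype. The submitters' processing notes name the mm10 build with TopHat2 2.0.9, Cufflinks 2.1.1 and Cuffdiff. Which annotation was used, what each tool did and how columns were made comparable were not given in the sources used here. Values are FPKM, which the authors deposited per row in 6 sample columns and a summary column, and 0 columns were left without a match. Per the labels' protocols the library kit is not said to mark strand. Whether reads of a gene and of one overlapping it on the other strand were kept apart is therefore not known. The files give no counts, so depth is unknown and sets no interval here.

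The planned limma fit between genotypes was not run, because same-numbered columns are copies. Members and gene lists were chosen with earlier results of these data known. All 10 members were named, with the 3 highest and the lowest gene of each list by mean. Any immediate early gene could be named, and the other Mmp genes of the AP-1 target list were named outside this rule. A gene that this rule takes is not reported here. Marker genes were a fixed set. Rows were matched by symbol, taking the row with the highest mean; each of the 9 members had 1 row. The 1366 rows without a symbol held 7.84% to 11.9% of summed FPKM and were left out of counts. Rows averaging at least 1 FPKM served as background, and differences used log2(FPKM + 1), which understates changes of low genes. Deposited starts were raised by 1: of 19610 symbols in the RefSeq table, 42.2% had a deposited start 1 below the RefSeq start and 2.68% an equal one. Fold calls and median-ratio scaling were tested on simulated data. Quantile normalization was run on them without a pass mark, and the span calculation was not tested. Alternatives were median-ratio scaling, quantile normalization, a pseudocount of 0.1, a 2-fold call, no filter, summed rows and leave-one-out of replicate numbers. Software was Python 3.11.15, pandas 2.3.3, numpy 2.4.6 and matplotlib 3.10.9.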

Additional observations from a re-analysis of the deposited data

Results flagged for a closer look

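The authors' summary column is used in no comparison here. Times 9, the summary ended at 4 decimals in 91.4% of 5957 rows with values from 10 to 1000 (within 0.001 of the last decimal), while no other multiplier between 2 and 12 passed 30.3%, which matches a mean over 9 values. Taking each profile away 2 times leaves the sum of 3 values that the table does not show, and no row came out below 0. If the summary was built that way, the mean of those values was 204 FPKM for Jun, 73.5 FPKM for Atf3 and 88.5 FPKM for Egr1. Each lies above all 3 profiles, whose highest values were 158, 67.5 and 66.5 FPKM. These 3 of 9 members are near the share of all 11256 rows, 29.1% of which lay above all 3 profiles in this sense, so nothing particular to the members is read from it. Below all 3 profiles lay 2 of the 9, Ier3 and Fosb, and 42.1% of rows. Which samples these values belong to is not known, and no comparison was made.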

How the results depend on the processing

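No paired analysis was possible because each Elp3 cKO column repeats the control column of its number, which makes all differences within pairs 0. For the same reason the genotype fit without single replicates was not run. The count of members past the fold was 1 with a pseudocount of 0.1 and under both scalings, and 0 at 2-fold. Removing the filter cannot change this count or the members' median span, as all 9 members pass the filter. The median span of 0.44 lay between 0.17 and 0.34 without each replicate number, the lowest being without profile 2. Under the scalings and the other pseudocount it lay between 0.44 and 0.48. The order of levels kept 7 of 9 places under median-ratio scaling, where Fos and Jun changed places, and 9 under quantile normalization. The median member level of 141 FPKM was 141 and 139 under the scalings, and 126 to 146 without each replicate number. Summed rows gave 141, which was fixed in advance, as each member had 1 row. Under the scalings, all 18 recomputed medians of single members moved by less than 1 SD of the profiles; without each replicate number a median of 3 values cannot move further than that. The counts lowest in profile 2 and in the order 3, 1, 2 were examined under the scalings after seeing the data. The number of distinct profiles, 3, limits every statement here.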

Other observations

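In the same arithmetic of the summary column, the other members divided. The mean of the values not shown was 197 FPKM for Fos, 168 for Junb, 130 for Jund and 64.0 for Fosl2, each within the range of the 3 profiles. It was 514 FPKM for Ier3, below its lowest profile at 681, and 31.6 FPKM for Fosb, below its lowest at 33.1. Egr1 had the highest ratio of this mean to the mean of the profiles among the members, at 1.59, and Ier3 the lowest, at 0.693. The median ratio over all rows was 0.952, computed with 1 FPKM added to both means. Nothing was added for the members, so the values are not strictly alike. These values rest on the summary being a mean over 9 values with each profile entered 2 times.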
